A study of Mus musculus with 34 samples.

Results

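The 10 genes described here are members of the AP-1 transcription factor family and of the immediate early response: Fos, Fosb, Fosl1, Fosl2, Jun, Junb, Jund, Egr1, Atf3 and Cyr61. They were chosen by symbol, 10 of the 24223 rows in the count table of the knockout mice, and all 10 passed the filter on low counts that left 14847 genes for testing. RNA came from tracheal airway epithelium, collected by brushing from Gprc5a-/- mice, a strain without the retinoic acid-induced receptor gene Gprc5a that is used as a model of lung adenocarcinoma. The exposed mice had received the tobacco nitrosamine NNK into the peritoneum at 50 mg/kg body weight, 3 times a week over 8 weeks. The knockout groups were baseline (n = 6), taken before any NNK, and 4 exposed groups. Of these, t0 (n = 6) was taken when dosing ended, and 2, 4 and 6 months later came t2 with 5 mice, t4 with 6 and t6 with 5. All 5 groups carry the Gprc5a-/- genotype, the labels give the same age of 6 to 8 weeks for each, and 1 mouse gave 1 library. That age cannot be the age at collection for mice taken 2, 4 or 6 months after 8 weeks of dosing. Another 6 libraries came from wild-type mice before exposure, whose table was made separately. Mice of the later ages without NNK were not analysed here, so exposure, age and time after exposure cannot be told apart in any comparison with baseline.

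AP-1 is a dimer of a Jun protein with a Fos protein, or with a related protein such as Atf3, and binds short DNA sites in promoters and enhancers. Immediate early genes are switched on within minutes of a growth factor, a stress or a physical stimulus, through proteins that already exist in the cell, and their transcripts decay quickly. Fos, Fosb, Egr1, Atf3, Jun and Junb are classic members, while Jund and Fosl2 are generally steadier. In airway epithelium AP-1 is known for its part in injury, squamous change and smoke responses. Since handling, dissociation and the time to lysis can raise these transcripts in many tissues, their levels are commonly read with care.

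Several of these genes moved together from mouse to mouse, so their promoters were searched for shared letters. RefSeq's table (GRCm38.p6) held the 250 bases before and 50 after the start site for 8 of the 10 members. None of the 8 windows held the AP-1 site TGACTCA or TGAGTCA (5.20% of 32851 promoters), the cyclic AMP element TGACGTCA (1.79%) or a CArG box (1.63%), each searched on both strands. The core of the cyclic AMP element, TGACG or its complement CGTCA, was in 5 of the 8 windows and in 20.8% of all promoters. That core was chosen after the sequences had been seen, and it also lies inside the full element. The 5 promoters that held it are shown in windows of 60 bases, 5′ to 3′ on the gene's own strand, with the core in capitals.
Fos: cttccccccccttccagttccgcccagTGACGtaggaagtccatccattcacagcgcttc
Fosb: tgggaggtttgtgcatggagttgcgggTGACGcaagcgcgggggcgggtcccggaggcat
Junb: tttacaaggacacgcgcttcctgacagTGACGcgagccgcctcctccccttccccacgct
Atf3: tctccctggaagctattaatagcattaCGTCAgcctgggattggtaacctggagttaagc
Cyr61: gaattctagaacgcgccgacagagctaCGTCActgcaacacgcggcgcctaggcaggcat
The windows lie at chr12:85473797-85473856 on the plus strand for Fos, and on the minus strand at chr7:19310073-19310132 for Fosb, chr8:84978822-84978881 for Junb, chr1:191183308-191183367 for Atf3 and chr3:145650011-145650070 for Cyr61. Relative to RefSeq's start site the core began at -66 in Fos, -60 in Fosb, -106 in Junb, -7 in Atf3 and -58 in Cyr61, and Fos held another at -129. In the windows of Jun, Jund and Fosl2 these letters were not found. A match is a description of the sequence only. Elements farther upstream or with other letters would have been missed, and Egr1 and Fosl1 had no window.

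Total counts were 15.6 to 37.6 M per knockout library and 10.8 to 24.0 M per wild-type library. Gprc5a was low in the knockout libraries, at 0.115 to 3.11 CPM (counts scaled to a common library size, with TMM factors) in 27 of them, while the library labelled t2 339 held 7.71 CPM (238 counts). Haemoglobin made up 22.8% of library t0 357, 25.5% of t4 371 and 15.3% of t6 349. Rn45s, which makes ribosomal RNA, made up 14.8% of t6 365, and t2 339 held 14475 genes above 0. In the other 23 libraries haemoglobin took at most 3.06%, Rn45s at most 7.68%, and at least 16892 genes lay above 0. The tests between groups and the correlations of pairs of members were therefore also computed without these 5 libraries. The brushings held airway epithelium: all 6 club cell markers (such as Scgb1a1) were above 0 in every library, and their summed level was 65987 to 97824 CPM at baseline, 15323 to 24180 at t0, 33160 to 53465 at t2, 29033 to 55439 at t4 and 27290 to 63380 at t6. Over the same groups the 6 basal cell markers, also above 0 in every library, summed to 1047 to 2689, 4893 to 9420, 1692 to 3516, 1312 to 5165 and 1681 to 3312 CPM. In bulk RNA such as this, fewer cells of a type and less RNA per cell cannot be told apart.

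Per length, Fos, Jund and Junb were the most abundant members and Fosl1 the least in both genotypes. In the wild-type libraries the mean level was 121 ± 148 TPM for Fos (SD, n = 6 here and below), 93.3 ± 31.9 for Jund and 75.1 ± 48.1 for Junb. Jun followed at 20.9 ± 16.8 TPM, with Cyr61 at 16.8 ± 20.4, Fosb at 16.1 ± 24.0, Egr1 at 13.2 ± 16.5, Fosl2 at 11.9 ± 4.86 and Atf3 at 8.01 ± 12.05. Fosl1 lay at 0.0833 ± 0.150 TPM and was listed at 0 in 4 of the 6 mice. Except from Junb to Jun, neighbours in this order differed by less than the larger of their SDs. In the knockout baseline libraries, CPM per kilobase of exon gave Fos 202 ± 219, Jund 157 ± 32.1, Junb 99.7 ± 59.2 and Jun 66.7 ± 72.9 (SD, n = 6). There Cyr61, Atf3, Fosb, Egr1 and Fosl2 followed at 37.1 ± 38.5, 28.8 ± 34.3, 28.3 ± 31.6, 25.6 ± 27.7 and 10.1 ± 2.33 CPM per kilobase, with Fosl1 last at 0.316 ± 0.505.

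The feature that set most of these genes apart was their spread between mice of the same group. Within groups, the SD of log2(CPM + 1) was 1.76 for Fosb, 1.41 for Egr1, 1.22 for Cyr61, 1.19 for Fosl1, 1.17 for Atf3, 1.17 for Fos, 0.93 for Jun and 0.76 for Junb, against a median of 0.33 over all genes tested. Each of these 8 was larger than the SD of over 95% of the genes, from 95.8% for Junb to 99.8% for Fosb, and of 98.0% to 100% of the 1000 genes nearest in level. For Fosl1, near 0 in most libraries, the SD depended strongly on t4 336, which deviated from its group mean by 4.11. Fosl2, at 0.40, and Jund, at 0.36, lay at 64.5% and 55.0% of all genes. The share of variance that lay between groups was 9.20% for Junb, 12.1% for Atf3, 14.4% for Fos and 54.4% for Fosl2, against a median of 41.7% over all genes; Fosl2 was the only one of the 10 above that median. The same libraries tended to be the extremes. Baseline 343 was the highest of its group for 9 of the 10 members and baseline 352 the lowest for 7; t6 365 was the highest for 9 and t6 341 the lowest for all 10; t2 358 was the highest for 8; and t4 335 and t4 336 were each the highest for 5.

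**Figure D1:**
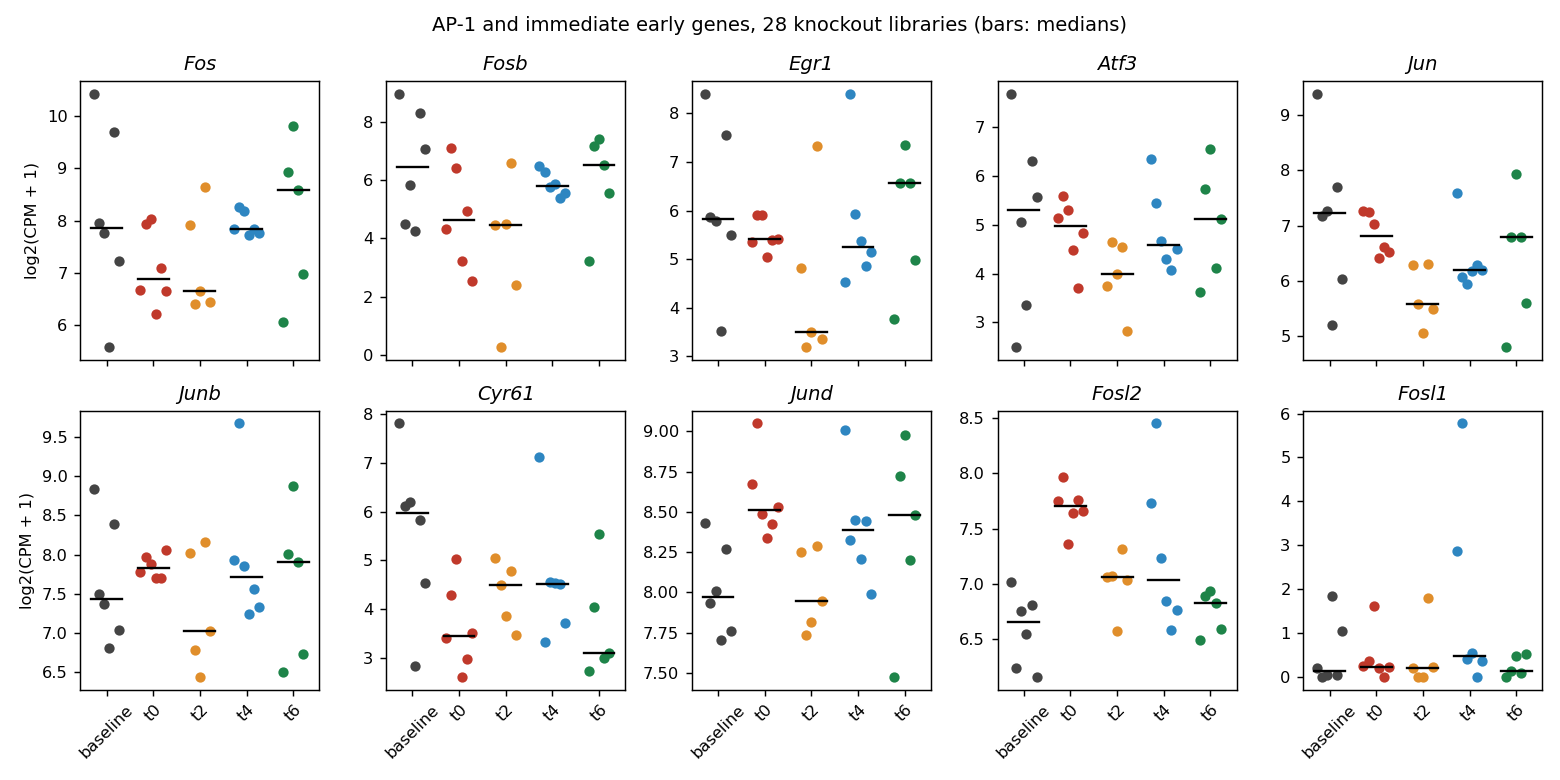
Level of each member in the 28 knockout libraries, as log2(CPM + 1) on the vertical axis, by group on the horizontal axis; points are single mice and bars are group medians. Baseline points of Fos span 47.1 to 1366 CPM, while those of Fosl2 span 70.6 to 129 CPM and lie below every t0 point.

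Fos (chromosome 12, 85473901 to 85477270, plus strand, mm10), whose protein is the classic partner of Jun, fell at t0. Its baseline libraries held 47.1 CPM at the lowest, 231 at the median and 1366 at the highest, a 29.0-fold range, and the t0 libraries 73.7, 119 and 261. The t2 libraries held 240 (334), 84.3 (339), 100 (347), 399 (358) and 86.1 CPM (360). Every t0 and t2 library lay within the baseline range. At t4 the values were the tightest, 210, 228 and 303 CPM, and at t6 they spread again, to 65.6 (341), 485 (349), 894 (365), 380 (366) and 125 CPM (368). Mean levels were 475 ± 514 CPM (SD, n = 6) at baseline, 153 ± 79.5 (n = 6) at t0, 182 ± 138 (n = 5) at t2, 246 ± 40.3 (n = 6) at t4 and 390 ± 331 (n = 5) at t6. The log2 fold change from baseline to t0 was -1.64 ± 0.64 (SE; edgeR's quasi-likelihood test, adjusted p = 0.0383), and those at t2, t4 and t6 were -1.39, -0.95 and -0.28 and did not pass. The call at t0 was lost without baseline 343 (-0.96, adjusted p = 0.200), without baseline 355, t0 332, t0 367, t0 374 or t0 375 (-1.61 to -1.41, adjusted p = 0.0631 to 0.0851), with limma at both pseudocounts (at 1, -1.001, adjusted p = 0.208), and with scaling by totals (0.0557), no filter (0.0647) or only the 2 groups in the fit (0.0658).

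Fosb (chromosome 7, 19302696 to 19310045, minus strand) and Egr1 (chromosome 18, 34861207 to 34864956, plus strand) encode a close relative of Fos and a zinc finger factor that many stimuli induce along with it. Fosb was at 18.2, 95.02 and 506 CPM at baseline (lowest, median and highest), 4.79, 24.5 and 137 at t0, and 41.1, 55.4 and 88.7 at t4. Its t2 values were 21.1 (334), 0.194 (339), 21.3 (347), 97.0 (358) and 4.21 CPM (360), while its t6 values were 8.40 (341), 146 (349), 173 (365), 92.3 (366) and 46.5 CPM (368). The library t2 339, with 6 counts of Fosb, was the one with few genes detected. No comparison of Fosb with baseline passed: the log2 fold change was -1.89 ± 0.97 at t0 (adjusted p = 0.115, edgeR) and -2.62 ± 1.07 at t2 (0.0843). At t2 it passed with DESeq2 (-2.61, adjusted p = 0.0294) and with limma at pseudocount 0.1 (-3.32, 0.0457). Without t2 358, the highest of its group, the change at t2 was -3.91 (adjusted p = 0.0273), and without the 5 doubted libraries that at t0 was -2.58 (0.0311). Over the 28 fits with 1 library left out, the change of Fosb at t2 ran from -3.91 to -1.94 (adjusted p up to 0.208). At t0 it ran from -2.57 to -1.22 (up to 0.323). Egr1 ranged from 10.4 over 55.7 to 336 CPM at baseline, 32.0 over 41.5 to 59.0 at t0, and 22.2 over 37.4 to 338 at t4, where t4 336 stood alone. In t2 Egr1 was at 27.2 (334), 8.13 (339), 10.4 (347), 160 (358) and 9.30 CPM (360), and in t6 at 12.6 (341), 93.4 (349), 161 (365), 94.3 (366) and 30.6 CPM (368). At t0 all 6 Egr1 values lay inside the baseline range, and at t2 3 of the 5 lay below it. Egr1 passed in none of the comparisons (t0 -1.34 ± 0.84, adjusted p = 0.200, and t2 -1.42 ± 0.90, 0.275), but at t2 it passed without t2 358 (-3.06, adjusted p = 0.0255). That was 1 of the 28 fits with 1 library left out, over which the change at t2 ran from -3.06 to -0.72 (adjusted p up to 0.614).

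Atf3 (chromosome 1, 191170297 to 191183333, minus strand), a stress-induced partner of Jun, was lowest on average at t2. It was at 4.64, 39.1 and 203 CPM at baseline, 12.1, 30.6 and 47.0 at t0, and 15.8, 22.9 and 79.8 at t4 (lowest, median and highest). The t2 libraries held 12.5 (334), 24.0 (339), 14.9 (347), 22.1 (358) and 6.07 CPM (360), and the t6 libraries 11.3 (341), 52.0 (349), 92.1 (365), 16.2 (366) and 33.8 CPM (368). All 5 t2 values lay under the baseline median, within its range. The change at t2 was -1.96 ± 0.71 on the log2 scale, just over the threshold (adjusted p = 0.0532, edgeR), and DESeq2 gave the same size with an adjusted p of 0.0216. It also passed without baseline 344 (-2.21, adjusted p = 0.0220), baseline 352, t4 335, t6 341 or t6 365 (-2.19 to -1.96, adjusted p = 0.0288 to 0.0485). These were 5 of the 28 fits with 1 library left out. Over all 28 the change ran from -2.21 to -1.09, with adjusted p up to 0.241, and under the 9 other settings adjusted p reached 0.244. The annotation places a small RNA gene, Gm24748, across 108 bases of Atf3 on the other strand, and whether the counting used strand is not given in the sources used here.

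Jun (chromosome 4, 95049036 to 95052222, minus strand), the central subunit of AP-1, was lowest at t2. At baseline it was at 35.9, 149 and 670 CPM, at t0 at 84.1, 113 and 153, and at t4 at 60.3, 72.0 and 192, the last in t4 335 (lowest, median and highest). In t2 the 5 libraries held 77.4 (334), 47.0 (339), 32.3 (347), 77.9 (358) and 43.6 CPM (360). All of them lay below every t0 library and below the baseline median. The t6 libraries held 26.8 (341), 109 (349), 244 (365), 110 (366) and 47.1 CPM (368). Jun fell from 213 ± 233 CPM (SD, n = 6) at baseline to 55.6 ± 20.8 (n = 5) at t2, a log2 fold change of -1.93 ± 0.57 (adjusted p = 0.0192, edgeR). Without baseline 343 the change was -1.12 and was not called (adjusted p = 0.105), nor was it with limma (-1.39, 0.0625) or with only the 2 groups in the fit (-1.93, 0.0677). At t4 the change of -1.24 ± 0.53 did not pass (adjusted p = 0.0949), but it did without baseline 352 (-1.46, 0.0403) or t4 335 (-1.61, 0.0453). Those were 2 of the 28 fits with 1 library left out, over which the change at t4 ran from -1.61 to -0.43 (adjusted p up to 0.551). Between t0 and t2 the 2 groups of libraries did not overlap, yet the difference did not pass when all 28 libraries shared 1 estimate of the spread (-1.08 ± 0.56, adjusted p = 0.150), and passed with only these 2 groups in the fit (-1.06, adjusted p = 0.00888).

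Junb (chromosome 8, 84976909 to 84978748, minus strand), the Jun protein best known for restraining growth, kept nearly the same mean at baseline, t0 and t6. Its means were 229 ± 136, 230 ± 23.9, 174 ± 91.9, 298 ± 256 and 231 ± 152 CPM at baseline, t0, t2, t4 and t6 (SD, n = 6, 6, 5, 6 and 5). The t0 libraries lay within 206 to 264 CPM, while the baseline libraries ran from 111 over 172 to 455. In t4 the values were 151 at the lowest, 209 at the median and 814 in t4 336. In t2 Junb was at 259 (334), 109 (339), 85.8 (347), 286 (358) and 129 CPM (360), and in t6 at 90.03 (341), 257 (349), 467 (365), 238 (366) and 105 CPM (368). The interval for the change at t0 was wide around 0 (0.01 ± 0.43 on the log2 scale, adjusted p = 0.994, edgeR), and no comparison of Junb passed. Junb shares 351 bases with Prdx2 on the other strand, which was at 131 CPM in t4 336, inside the 79.6 to 229 CPM of the other t4 libraries.

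Jund (chromosome 8, 70697739 to 70700616, plus strand), the Jun protein most cells make at rest, rose at t0 from 263 ± 53.5 CPM (SD, n = 6) to 388 ± 74.4 (n = 6). The baseline libraries held 207, 250 and 344 CPM and the t0 libraries 323, 363 and 529 (lowest, median and highest), and 4 of the 6 t0 libraries lay above every baseline library. The t2 libraries held 304 (334), 212 (339), 225 (347), 311 (358) and 246 CPM (360), all below the lowest t0 library. At t4 the range was 253 to 514 CPM around a median of 334, and at t6 the libraries held 177 (341), 422 (349), 503 (365), 293 (366) and 356 CPM (368). The rise at t0 was 0.56 ± 0.20 on the log2 scale (adjusted p = 0.0205, edgeR), and t2 lay below t0 by a log2 change of -0.58 ± 0.21 (adjusted p = 0.0345). The rise was called under each of the 9 other settings and in 27 of the 28 fits with 1 library left out. Without t0 357, one of the 3 libraries rich in haemoglobin, it was 0.46 (adjusted p = 0.0687), and the difference of t2 from t0 was -0.47 (0.0957). The latter was also lost without t0 332, t2 339, t2 347 or t2 360 (-0.57 to -0.51, adjusted p = 0.0565 to 0.0818) and without the 5 doubted libraries (-0.39, adjusted p = 0.157).

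Fosl2 (chromosome 5, 32136472 to 32157839, plus strand), a Fos-related protein without the strong activating region of Fos, showed the clearest change of the 10. It rose from 97.6 ± 22.6 CPM (SD, n = 6) at baseline to 207 ± 28.0 (n = 6) at t0. The baseline libraries held 70.6, 100 and 129 CPM and the t0 libraries 163, 207 and 248.6 (lowest, median and highest), with no overlap. The t2 libraries held 133 (334), 133 (339), 94.6 (347), 159 (358) and 130 CPM (360), and the t6 libraries 89.3 (341), 118 (349), 121 (365), 112 (366) and 95.5 CPM (368). All 10 of these lay below the lowest t0 library. In t4 the values were 94.7, 132 and 348 CPM, the highest again in t4 336. The rise at t0 was 1.08 ± 0.23 on the log2 scale (adjusted p = 0.00036, edgeR) and was called under each of the 9 other settings and with each library left out in turn. At t4 the rise was 0.81 ± 0.23 (adjusted p = 0.0139), but 0.47 (0.0680) without t4 336, and it was not called with only the 2 groups in the fit (0.82, 0.0620). Against t0, t2 was lower by a log2 change of -0.67 ± 0.24 (adjusted p = 0.0349) and t6 by -0.94 ± 0.24 (0.0028); without t4 336, t4 too was lower than t0 (-0.61, adjusted p = 0.0107, against -0.27 and 0.384 with it). The call of t2 against t0 was lost without t0 332, t0 357, t0 374, t2 334, t2 339, t2 347 or t2 360 (-0.68 to -0.57, adjusted p = 0.0514 to 0.0968) and without the 5 doubted libraries (-0.61, adjusted p = 0.0818). The summed basal cell markers given above were also highest at t0, and t4 336 had 5165 CPM of them against 1312 to 2123 in the other t4 libraries. Within groups, the relation of Fosl2 to the basal markers did not pass after adjustment (Pearson's r = 0.55, permutation p = 0.0234, adjusted 0.304 over 26 relations; Spearman's rho = 0.36, p = 0.0843, adjusted 0.646; r = 0.33 without the 2 libraries farthest in the basal markers; n = 28); their part in the rise was not tested.

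Fosl1 (chromosome 19, 5447698 to 5455938, plus strand), a Fos-related gene known from injured and squamous epithelium, was near 0 in most mice and high in 2 of the t4 mice. Across baseline, t0, t2 and t6 no library exceeded 2.57 CPM, and group medians were 0.0967, 0.174, 0.152 and 0.0919 CPM. In t4 the values were 6.32 (335), 53.7 (336), 0.329 (340), 0.452 (348), 0 (371) and 0.288 CPM (377), with a median of 0.391. The mean of 10.2 ± 21.5 CPM (SD, n = 6) at t4 therefore came mainly from 1 mouse. Against t0 the log2 fold change was 4.33 ± 1.54 (adjusted p = 0.0306, edgeR), and without t4 336 it was 1.60 (0.384). The call was also lost without t0 332, t0 357, t0 367, t0 374 or t0 375 (4.08 to 4.22, adjusted p = 0.0583 to 0.0607). With sex as a covariate it was 2.56 (0.243), with limma 1.22 (0.149) and with no filter 4.33 (0.0563), none of them called. Against baseline the change at t4 was 4.00 ± 1.52 and was not called (adjusted p = 0.0628), although it passed with DESeq2 (0.0432), without the 5 doubted libraries (4.28, 0.0449) and without baseline 352, t2 339, t2 358 or t4 371 (4.00 to 5.28, adjusted p = 0.0345 to 0.0485). Over all 28 fits with 1 library left out it ran from 1.26 to 5.28, with adjusted p up to 0.545. Fosl1 shares 2767 bases with Ccdc85b on the other strand. Its estimated counts were whole only in the 6 of the 28 libraries where it was at 0, so its level is uncertain. The t4 336 library was also the highest of its group for Ccdc85b, at 32.2 CPM, against 13.3 to 22.3 CPM in the other t4 libraries. How reads in the shared bases were divided between Fosl1 and Ccdc85b was not tested.

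Cyr61 (chromosome 3, 145646971 to 145649985, minus strand), which encodes a secreted matrix protein and responds to serum, stretch and the YAP pathway, fell at t0. Its baseline libraries held 6.11, 62.2 and 224 CPM and its t0 libraries 5.09, 9.94 and 31.4 (lowest, median and highest). Every t0 library lay below the baseline median, and 1 lay below the lowest baseline library. The t2 libraries held 32.4 (334), 21.5 (339), 13.6 (347), 26.4 (358) and 10.1 CPM (360), and the t6 libraries 5.61 (341), 15.5 (349), 45.8 (365), 6.94 (366) and 7.58 CPM (368). In t4 the values were 9.06, 21.9 and 139 CPM, the last in t4 335. The mean fell from 74.9 ± 77.7 CPM (SD, n = 6) to 13.6 ± 9.86 (n = 6) at t0, a log2 change of -2.45 ± 0.75 (adjusted p = 0.0101, edgeR). Without baseline 343 it was -1.72 and just missed the threshold (adjusted p = 0.0515). At t2 and t6 the changes were -1.85 ± 0.79 (adjusted p = 0.0951) and -2.20 ± 0.80 (0.0856), and they passed with DESeq2 (0.0480 and 0.0301). At t6 the change also passed without baseline 352, t4 335 or t6 365 (-3.07 to -2.20, adjusted p = 0.0307 to 0.0467), and at t4 without t4 335 (-2.10, adjusted p = 0.0392, against -0.98 and 0.355 with it). Over all 28 fits with 1 library left out, the change at t6 ran from -3.07 to -1.47 (adjusted p up to 0.264). That at t4 ran from -2.10 to -0.25 (up to 0.847), and that at t2 from -2.09 to -1.12 (up to 0.313).

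**Figure D2:**
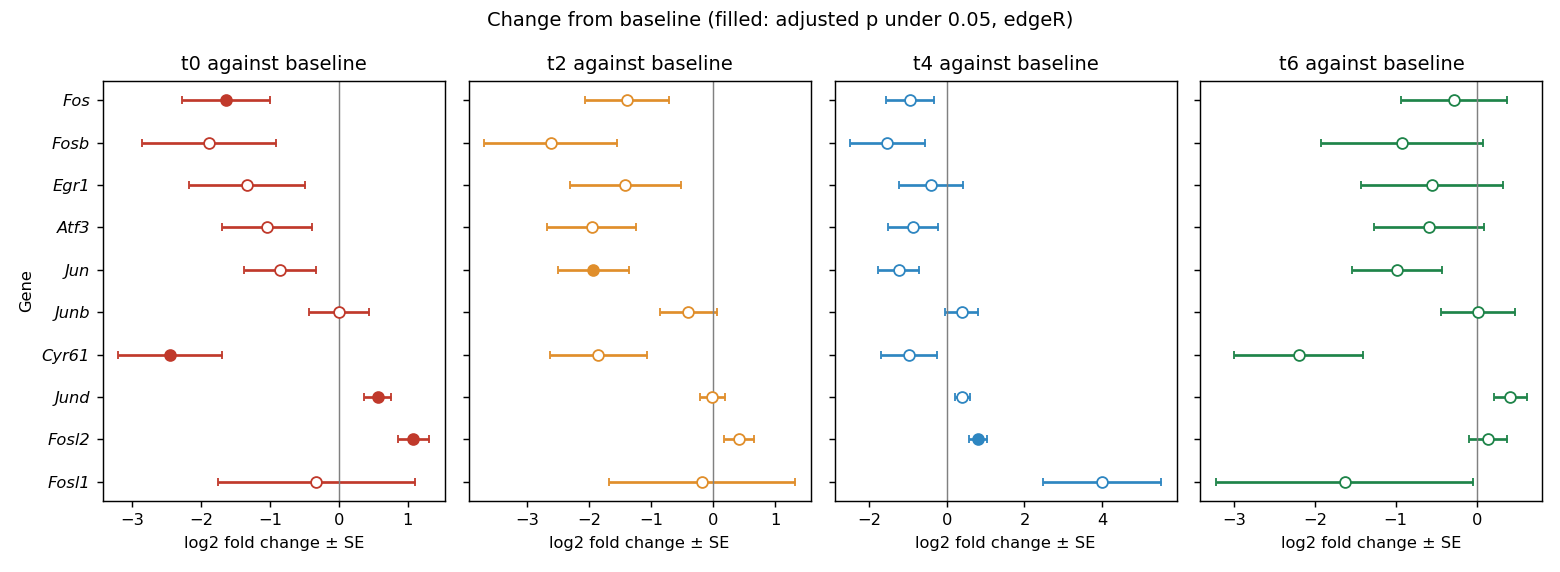
Log2 fold change of each member against baseline at t0, t2, t4 and t6 (horizontal axis, with an SE derived from the F statistic of edgeR's test). Filled points have an adjusted p under 0.05 over 14847 genes. At t0 Fos and Cyr61 are filled on the lower side and Jund and Fosl2 on the higher side, while at t6 no point is filled.

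The members were not called more often than other genes. At t0, 4 of the 10 were called against baseline (2 higher and 2 lower), while 45.5% of all genes were called, 23.3% higher and 22.3% lower. At t2 only Jun was called (19.9% of all genes), at t4 only Fosl2 (19.6%), and at t6 none (8.83%). At t6, 1 member had an unadjusted p under 0.05 and DESeq2 called 1. The median log2 fold change of the members was -0.95, -1.40, -0.64 and -0.57 at t0, t2, t4 and t6, with 7, 9, 6 and 7 of the 10 below 0, against medians of 0.02, 0.02, 0.01 and -0.01 over all genes. These 4 comparisons share the same 6 baseline libraries, of which 343 was the highest for 9 members.

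Between the exposed groups few members were called either. Fosl2 and Jund were lower at t2 than at t0 (29.9% of all genes called), Fosl1 was higher at t4 than at t0 (33.4%), and Fosl2 was lower at t6 than at t0 (38.7%). For t4 against t2, 0 of the members and 0% of the genes were called by edgeR (1 member and 2035 genes at an unadjusted p under 0.05; DESeq2 called 155 genes). For t6 against t2 no member was called (5.64% of all genes; 0 members at an unadjusted p under 0.05), and for t6 against t4 none (0.869%; 2 at an unadjusted p under 0.05, and 1 by DESeq2). The F test over the 5 groups called 5 members, Fosl2 (adjusted p = 0.00098), Fosl1 (0.00568), Cyr61 (0.0237), Jund (0.0423) and Jun (0.0429), and 56.8% of all genes. In that test Fosl1 was lost without t4 336 (adjusted p = 0.441) and Cyr61 without baseline 343 (0.123), while Jun and Jund, both close to the threshold, were lost with many single libraries left out (up to 0.218 for Jun without baseline 343 and 0.0834 for Jund without t0 357). Ordered by mean, neighbouring groups did not differ beyond their spread for any of the 10: the smallest adjusted p between neighbours was 0.0628, for Fosl1 between t4 and baseline.

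Within groups, mice high in 1 early gene were high in most of the others. After subtracting group means, 35 of the 45 pairs of members were correlated over the 28 knockout libraries by Pearson's r and 34 by Spearman's rho (permutation within groups, adjusted over the 45 pairs). Fos followed Egr1 with r = 0.87 (permutation p = 1e-05, the smallest the permutations can give, adjusted 7.5e-05; rho = 0.86, p = 1e-05, adjusted 0.00015; r = 0.81 without the 2 libraries farthest in Fos). It followed Jun with r = 0.87 (p = 2e-05, adjusted 1e-04; rho = 0.80, p = 2e-05, adjusted 0.00022; r = 0.78 without the farthest 2). Junb followed Egr1 with r = 0.90 (p = 1e-05, adjusted 7.5e-05; rho = 0.88, p = 1e-05, adjusted 0.00015; 0.87 without the farthest 2), and Jun followed Cyr61 with r = 0.86 (p = 1e-05, adjusted 7.5e-05; rho = 0.78, p = 3e-05, adjusted 0.00022; 0.77 without the farthest 2). Among the 28 pairs that hold neither Fosl1 nor Fosl2, a division made after the values were seen, r ran from 0.41 to 0.90 with a median of 0.66, and 27 passed; Egr1 with Cyr61 did not (r = 0.41, p = 0.0577, adjusted 0.0702; rho = 0.40, p = 0.0481, adjusted 0.0618; 0.62 without the 2 farthest in Egr1).

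**Figure D3:**
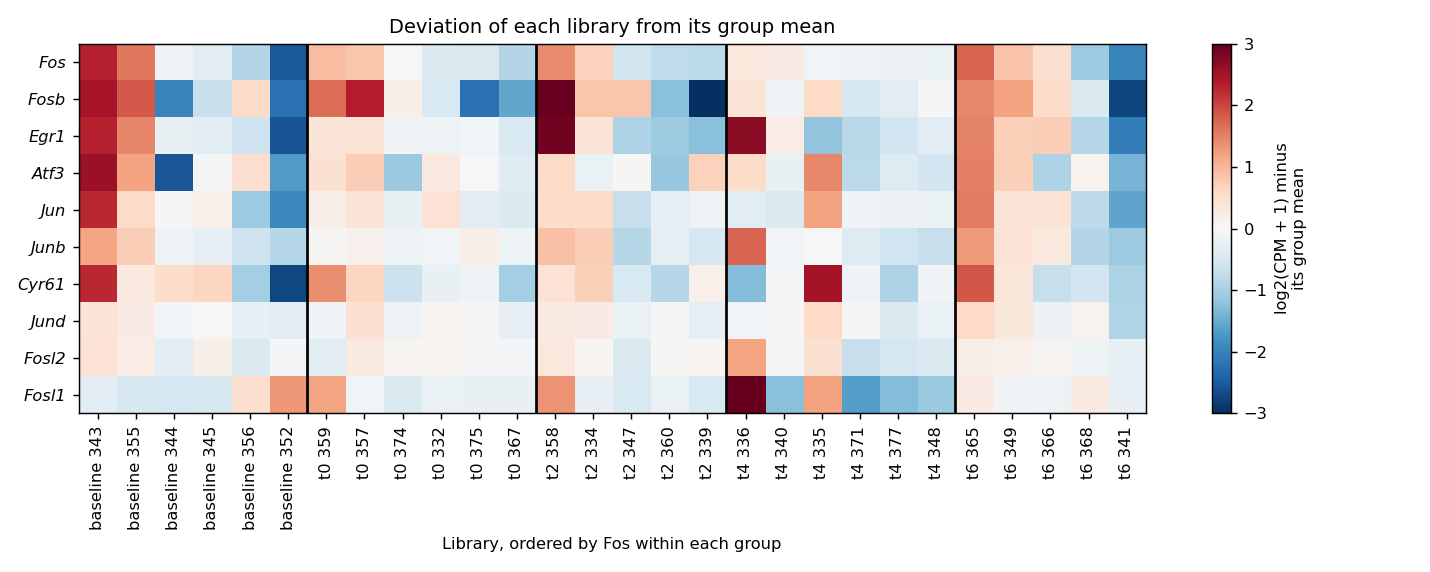
Deviation of log2(CPM + 1) from its group mean (colour, red above and blue below, saturated beyond 3 in either direction) for the 10 members (rows) in the 28 knockout libraries (columns), ordered by Fos within each group. Baseline 343 and t6 365 are red, and baseline 352 and t6 341 blue, in most rows, while t4 336 is red for Egr1, Junb, Fosl2 and Fosl1.

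Fosl1 was the exception. It passed in 1 of its 9 pairs, with Fosl2 (r = 0.68, p = 0.0219, adjusted 0.0299; rho = 0.44, p = 0.0546, adjusted 0.0664), and r fell to 0.36 without the 2 libraries farthest in Fosl1, so that relation rests on them. Fosl2 passed in 8 of its 9 pairs, most closely with Junb (r = 0.74, p = 1e-05, adjusted 7.5e-05; rho = 0.75, p = 3e-05, adjusted 0.00022; 0.68 without the farthest 2). Without the 5 doubted libraries, 21 of the 45 pairs passed instead of 35, over 23 libraries, while r stayed at 0.86 for Fos with Egr1, 0.84 for Fos with Jun and 0.89 for Junb with Egr1. Of the 28 pairs that hold neither Fosl1 nor Fosl2, 19 passed in that setting instead of 27. Without the 6 baseline libraries 30 pairs passed, 20 of them among those 28, with r = 0.80, 0.78 and 0.88 for Fos with Egr1, Fos with Jun and Junb with Egr1. Both settings were added after the data were seen.

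**Figure D4:**
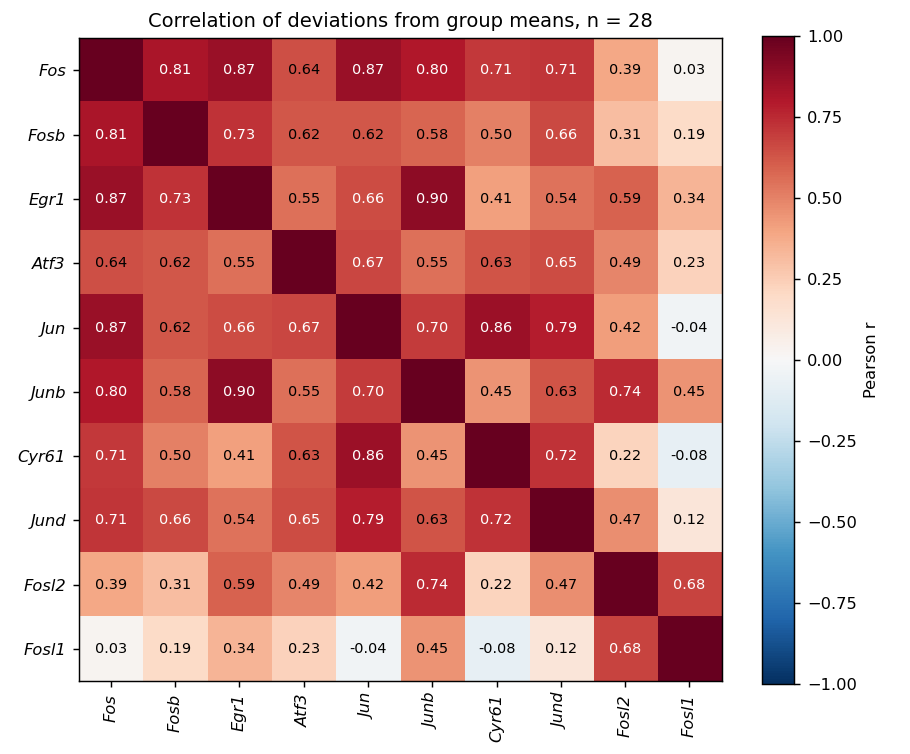
Pearson's r between the deviations of 2 members from their group means over 28 knockout libraries (colour and printed value), with the members in the same order on both axes. The pairs among the first 8 members run from 0.41 to 0.90, and the last row and column, of Fosl1, hold values from -0.08 to 0.68.

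Depth and cell markers were set beside Fos and Fosl2. Within groups, the relation of Fos to the total count of a library did not pass after adjustment (r = 0.46, permutation p = 0.00336, adjusted 0.0874 over 26 relations; rho = 0.50, p = 0.0104, adjusted 0.271; r = 0.53 without the 2 libraries farthest in total; n = 28). None of the 12 lists of cell type markers passed for Fos or for Fosl2; for Fos the macrophage markers gave r = 0.12 (p = 0.529, adjusted 0.951; rho = 0.09, p = 0.666, adjusted 0.984; r = 0.19 without the farthest 2) and the club cell markers r = 0.17 (p = 0.436, adjusted 0.951; rho = 0.18, p = 0.409, adjusted 0.819; r = 0.07 without the farthest 2). In baseline 343 the macrophage markers summed to 6887 CPM, inside the 3545 to 8480 of the other baseline libraries, and the basal markers to 1788, inside 1047 to 2689, while the club cell markers summed to 65987, the lowest of the group (74109 to 97824 in the others). The macrophage sums are weighted by level. Lyz2, at 1595 to 12141 CPM over the 28 libraries, was their largest part, and no other macrophage marker exceeded 993 CPM. Single macrophage markers were not tested against Fos. The time from death to lysis of each brushing is not given in the sources used here, and its part in the spread was not tested.

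Over all 14847 genes, the 3 most like Fos from mouse to mouse were other early response genes. By within-group Pearson's r over the 28 libraries, the 3 closest to Fos were the nuclear receptor Nr4a1 (0.92), the mRNA decay factor Zfp36 (0.89) and the growth inhibitor Btg2 (0.89). The 3 closest to Jun were the phosphatase Dusp1 (0.88), Nr4a1 (0.87) and Fos (0.87). For Cyr61 they were Jun (0.86), the related matrix protein Ctgf (0.78) and Dusp1 (0.78). Fosl1 differed again, with the sphingomyelin synthase Sgms2 (0.90), the receptor Tnfrsf12a (0.86) and Nipal1 (0.86), and its rho with Sgms2 was 0.64. The 50 genes closest to Fos held 7 of the 9 other members and 11 of the 32 other early genes tested (22% of the 50 and 34.4% of the list). The 50 closest to Fosl1 held 0 and 4, and the rest of each 50 were in neither set.

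The wild-type libraries, made and counted separately, showed a similar spread before any exposure. Mouse 295 had the fewest counts of these libraries (10.8 M). It held 17055 genes above 0, against 23279 to 26250 in the others, and the part of this in the spread was not tested. Fos was at 405, 146, 98.7, 38.9, 20.2 and 19.5 TPM in mice 452, 289, 450, 448, 454 and 295, a 20.8-fold range, against the 29.0-fold range of the knockout baseline. In the same order of mice, Egr1 was at 44.7, 17.1, 9.79, 5.98, 0.680 and 1.26 TPM. Jund was at 148, 80.5, 84.5, 83.8, 54.2 and 109 TPM, a 2.73-fold range. The mouse highest in Fos was thus highest in Egr1 and Jund, and the order of the other 5 was nearly kept for Egr1 but not for Jund. Of the 9 other members, 7 followed Fos on the log2(TPM + 1) scale by Pearson's r (exact permutation over 720 orders, n = 6, adjusted over the 9), and 4 by Spearman's rho. For Egr1 this gave r = 0.98 (exact p = 0.00278, adjusted 0.00833; rho = 0.94, exact p = 0.0167, adjusted 0.0375; r = 0.95 without the 2 mice farthest in Fos). Fosl1, one of the 7, was at 0 in 4 of the 6 mice. Junb and Jund did not pass (r = 0.77, exact p = 0.0681, adjusted 0.0766, and r = 0.59, exact p = 0.233, adjusted 0.233; rho = 0.43, exact p = 0.419, adjusted 0.472, and rho = 0.26, exact p = 0.658, adjusted 0.658). Fosl2, less tied to Fos in the knockout libraries (r = 0.39), had r = 0.95 here (exact p = 0.00278, adjusted 0.00833; rho = 0.94, exact p = 0.0167, adjusted 0.0375; 0.91 without the farthest 2); the difference between genotypes was not tested.

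**Figure D5:**
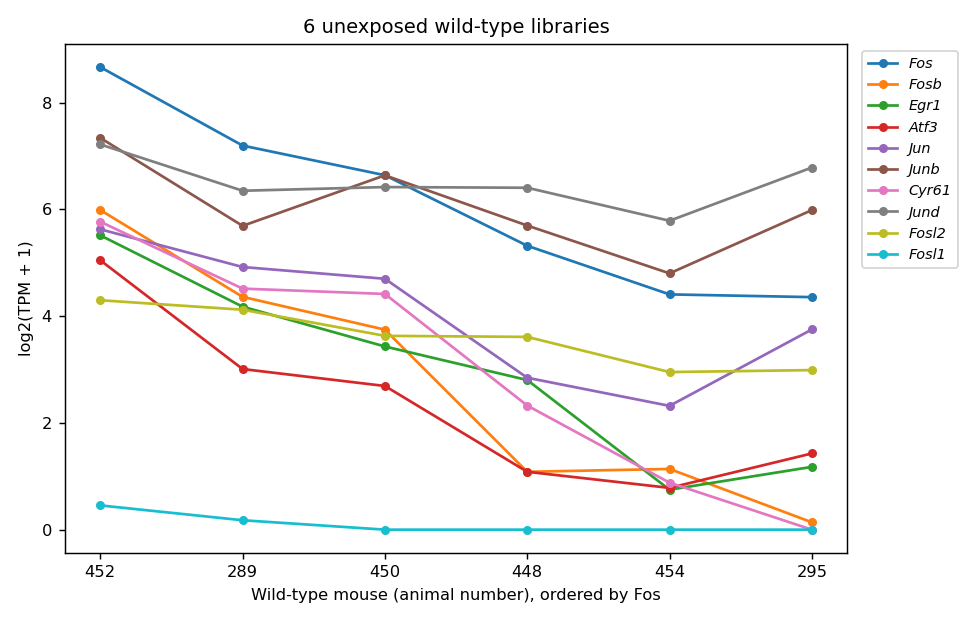
Level of each member as log2(TPM + 1) (vertical axis) in the 6 wild-type mice (horizontal axis, ordered by Fos from high to low), 1 line per gene. The line of Fos spans 19.5 to 405 TPM, and that of Jund 54.2 to 148 TPM.

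Cell type markers moved at t0 together with the related genes described next. Over all genes 45.5% were called at t0, 23.3% higher and 22.3% lower. Of the macrophage markers 5 of 7 tested rose and 1 fell, and none was at 0 in any library. Their summed level, of which Lyz2 was the largest part, was 3545 to 8480 CPM at baseline and 2778 to 7095 at t0. B cell markers rose in 3 of 4 tested (1.13 to 3.50 and 10.5 to 60.6 CPM summed, with Ms4a1 at 0 in 13 of the 28 libraries). Of the basal markers 5 of 6 rose, while 6 of 6 club cell and 6 of 6 ciliated cell markers fell (ciliated 1990 to 2909 and 374 to 1370 CPM summed). Their part in the changes of the lists was not tested.

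Among related genes, the other AP-1 and related leucine zipper factors that changed at t0 all rose, 6 of 18, while 45.5% of all genes were called, 23.3% higher and 22.3% lower (median log2 change of the list 0.16, against 0.02 over all genes). Jdp2, a repressor that pairs with Jun, rose from 41.3 ± 3.40 CPM (SD, n = 6) to 78.6 ± 15.1 (n = 6), a log2 change of 0.93 ± 0.13 (adjusted p = 3.6e-06, edgeR). Batf, a Jun partner of lymphocytes, rose from 2.66 ± 0.217 to 7.31 ± 3.27 CPM (1.46 ± 0.34, adjusted p = 0.00106), alongside the T and NK cell markers, of which 4 of 5 tested rose, and the part of those cells was not tested. The stress factor Ddit3 rose by 0.62 ± 0.20 (adjusted p = 0.0137), and Maff rose at t4 (1.15 ± 0.22, adjusted p = 0.00072). At t2, t4 and t6 the list had 1, 2 and 0 higher and 1 lower each. Of all genes 19.9%, 19.6% and 8.83% were called at those times, shares that also stand beside the lists below.

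Other immediate early and early response genes were called in both directions at t0, 6 higher and 2 lower of 32 tested (33 listed; median 0.30), a smaller share than the 45.5% of all genes. Myc rose from 12.2 ± 5.87 CPM to 41.5 ± 8.28 at t0 (1.77 ± 0.53, adjusted p = 0.00853) and was at -0.03 at t6. The kinase Sgk1 rose at t0 (0.74 ± 0.19, adjusted p = 0.00267) and fell at t4 (-0.67 ± 0.19, 0.0148). Nr4a3 fell at t2 (-2.86 ± 0.82, adjusted p = 0.0149), while the clock-related repressor Nfil3 rose there (0.85 ± 0.28, 0.0345). Of the same list, t2 had 2 higher and 2 lower, t4 had 5 higher and 3 lower, and t6 had 1 lower.

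Genes that act upstream, kinases and serum response factors, had 8 of 20 higher and 3 lower at t0 (median 0.19; 23.3% and 22.3% of all genes). Elk3, an Ets partner of serum response factor, rose from 13.5 ± 2.27 to 36.9 ± 9.81 CPM (1.45 ± 0.20, adjusted p = 2.1e-06), and the coactivator Mkl1 from 18.2 ± 2.84 to 48.6 ± 14.1 (1.41 ± 0.22, 7.2e-06). The kinases Map2k1 (0.73 ± 0.14, adjusted p = 0.00012) and Rps6ka1 (0.82 ± 0.14, 2.6e-05) also rose, and Rps6ka1 was still higher at t6 (0.56 ± 0.14, adjusted p = 0.0139). At t2, t4 and t6 the list had 4, 1 and 1 higher and 1, 1 and 0 lower.

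Genes with described AP-1 sites had 7 of 17 tested higher and 0 lower at t0 (23 listed; median 1.52), a total near the share of all genes called, 45.5%. The filament protein Vim rose from 38.6 ± 12.3 to 181 ± 70.8 CPM (2.23 ± 0.28, adjusted p = 5e-07) and the growth factor Areg from 1.71 ± 0.581 to 11.2 ± 7.21 (2.71 ± 0.82, 0.00851). At t4, Areg (4.73 ± 0.88, adjusted p = 0.00062) and the receptor Plaur (2.37 ± 0.62, 0.00957) were higher, each with a highest library far above the group median, at 192 against 14.4 CPM and at 793 against 85.6 CPM. The list had 4, 5 and 1 higher and 0, 0 and 1 lower at t2, t4 and t6. Among genes related to Cyr61 or to the YAP pathway, 2 of 8 tested rose and 1 fell at t0 (10 listed; median 0.19; 45.5% of all genes called): Axl, a receptor kinase, from 30.5 ± 2.99 to 212 ± 90.5 CPM (2.80 ± 0.23, adjusted p = 6.6e-10), Ajuba from 37.3 ± 5.17 to 76.0 ± 6.37 (1.02 ± 0.20, 0.00015), and Wisp3 down by a log2 change of -2.20 ± 0.70 (0.0114). Wisp2, of the same family, fell at t4 (-2.54 ± 0.67, adjusted p = 0.00897). In that list 2 rose and 1 fell at t2, while t4 had 1 in each direction and t6 had 0 called by edgeR (1 at an unadjusted p under 0.05).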

How the data were processed

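RNA of tracheal brushings was sequenced from poly-A libraries on an Ion Proton, per the labels' protocols. The authors deposited 1 knockout table, named for RPKM, whose values are estimated counts: 76.3% of those above 0 were whole within 0.01. The submitters' processing notes name Partek, Bowtie2 2.1.0, STAR 2.4.1d and the mm10 build for it, and STAR 2.7.0f, RSEM 1.3.1 and GRCm38 for the wild-type tables, which hold estimated counts and TPM per the file headers. Strand use and the sharing of reads between genes are not given in the sources used here. The test was planned for counts and for RPKM, and the form for counts was used.

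Estimated counts were rounded, genes that reached 1 CPM in 5 or more libraries kept (14847 of 24223), and TMM scaling and edgeR 4.0.16's quasi-likelihood test (R 4.3.3, robust, 1 mean per group over 28 libraries, two-sided) applied, with Benjamini-Hochberg adjustment over all genes and a threshold of 0.05. Correlations used log2(CPM + 1) less group means, with 100000 two-sided permutations within groups; the wild-type ones were exact. The SE of a log2 fold change is not an output of that edgeR test. It was derived as the absolute log2 fold change divided by the square root of the F statistic. No replicate numbers are shared between groups. No test was run between genotypes. Named genes are the 10 members, the 4 genes of each of 5 lists with the smallest F test p, and the 3 most like Fos, Jun, Fosl1 and Cyr61; 1 gene so named is not reported here. Members, lists and doubted libraries were chosen with earlier results of these data known.

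Alternatives were scaling by totals or DESeq2 1.42.0 size factors, no filter, DESeq2, limma 3.58.1 with pseudocounts 1 and 0.1, only the groups compared, sex (read from Xist and Y-linked genes) as a covariate, 5 libraries left out and each library left out in turn. The test was checked on simulated data. Depth was 15.6 to 37.6 M counts per knockout library, and without molecular identifiers 2 reads may come from 1 molecule. Permutations and figures used scipy 1.17.1 and numpy 2.4.6 under Python 3.11.15, with matplotlib 3.10.9.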

Additional observations from a re-analysis of the deposited data

Results flagged for a closer look

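In 60 groups of 5 or 6 libraries (10 members, 6 sets of mice), a single library stood far from the rest on the log2 scale in 6. Chance gives about 1 in 20 in independent groups. These groups share libraries and hold correlated members, so the 6 cannot be read against that rate. Fosl1 was at 2.07 CPM in t0 359 and at 2.45 CPM in t2 358, against at most 0.284 and 0.177 CPM in the others of their groups. Jun was at 192 CPM in t4 335, against 60.3 to 76.5, and Cyr61 at 139 CPM in the same library, against 9.06 to 22.6. Junb was at 814 CPM in t4 336, against 151 to 243, and Egr1 at 338 CPM in the same library, against 22.2 to 59.7. The t4 336 library also held 5165 CPM of basal cell markers against 1312 to 2123, and its total was the lowest of the knockout libraries; their part in these values was not tested.

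The difference from baseline was not the same at all times for 3 members, by direct tests of one exposed group against another (edgeR, adjusted over all genes); these groups also differ in age and in time after dosing. For Fosl1 the difference at t4 was larger than at t0 by 4.33 on the log2 scale (adjusted p = 0.0306), with t4 above the t0 median in 5 of 6 libraries, and by 1.60 without t4 336 (0.384). Those 5 include libraries at only 0.288, 0.329 and 0.452 CPM. For Fosl2 the change at t2 differed from that at t0 by -0.67 (adjusted p = 0.0349) and that at t6 by -0.94 (0.0028), with all 10 of the t2 and t6 libraries below every t0 library. The call at t2 was lost without the 5 doubted libraries (-0.61, adjusted p = 0.0818) and kept in 21 of the 28 fits with 1 library left out. For Jund the change at t2 differed from that at t0 by -0.58 (adjusted p = 0.0345), with all 5 t2 libraries below every t0 library. This call was lost without the 5 doubted libraries (-0.39, adjusted p = 0.157) and kept in 23 of the 28 fits with 1 library left out. The share of all genes whose groups did not overlap was not computed.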

How the results depend on the processing

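Fosl2 at t0, and at t6 against t0, kept its call under all 9 other settings and with each library left out. Over all genes, t6 against baseline gave 833 calls with scaling by totals; t6 against t4 gave 56 with totals, 16 with no filter, 435 with DESeq2, 71 and 49 with limma (pseudocounts 1 and 0.1), 0 with only both groups fitted and 272 without the 5 doubted libraries; t6 against t2 gave 1338 with DESeq2 and 46 with only both groups; and t4 against t2 gave 155 with DESeq2. Of the members, DESeq2 called 4 at t2, 2 at t4, 1 at t6 and 1 for t6 against t4. With limma 0 were called at t2 (pseudocount 1) and 2 in the F test, with no filter 3 in the F test, and with only both groups fitted 0 at t2 and 0 at t4. For t4 against t0, 0 were called with no filter, limma, only both groups or sex; at t4, 2 were called with sex and 2 without the doubted libraries, which gave 0 for t2 against t0. Pairs of members that were correlated numbered 21 without the doubted libraries, against 35.

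Uncalled log2 changes near 0 turned direction: Jund at t2 was 0.0757 with totals and 0.0493 without the doubted libraries; Junb at t6 was -0.0187 with totals, -0.0532 and -0.0540 with limma (pseudocounts 1 and 0.1), -0.15 with sex and -0.63 without the doubted libraries; Junb at t0 was -0.0066 with only both groups, -0.0550 with sex and -0.0326 without the doubted libraries; Fosl1 at t0 was 0.0198 with limma (pseudocount 0.1) and 0.44 with sex, and at t2 0.15 without the doubted libraries. The cause was not tested.

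With each library left out in turn, log2 changes ran from -1.13 to 0.28 for Atf3 at t6, -1.64 to 0.30 for Egr1 at t4, -0.99 to 0.15 for Egr1 at t6, -0.85 to 0.40 for Fos at t6, -1.97 to 0.94 for Fosl1 at t0, -2.95 to 1.10 for Fosl1 at t2, -0.14 to 0.32 for Junb at t0, -0.24 to 0.69 for Junb at t4, -0.41 to 0.33 for Junb at t6 and -0.0892 to 0.0767 for Jund at t2. Genes called ran from 0 to 31 for t4 against t2, 910 to 2052 for t6 against baseline (the highest without t2 339), 350 to 1057 for t6 against t2 and 0 to 270 for t6 against t4 (0 without t4 336). Members called ran from 2 to 4 at t0, 0 to 3 at t2, 0 to 3 at t4, 0 to 1 at t6, 0 to 2 for t2 against t0, 0 to 1 for t4 against t0 and 3 to 6 in the F test. No paired analysis was possible because the replicate numbers are animal numbers that no 2 groups share. Fosl1, near 0 counts in most libraries, is the member that depth limits most.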
